A study of Homo sapiens with 4 samples.

Results

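The genes that license, unwind and copy DNA were followed in U87-MG cells, a long-established line from human glioblastoma, after knockdown of MAGED2, a member of the melanoma antigen family. The members were the 51 rows, of 23444 in the deposited tables, whose symbol is a listed subunit of the origin recognition complex, the MCM, GINS, polymerase or clamp loader complexes, or a partner of these at the origin or the fork. There were 2 libraries of cells carrying a short hairpin RNA against MAGED2 (shMAGED2) and 2 of cells carrying a negative control hairpin (shCON), all from the same line, cultured in MEM. The series design calls the knockdown stable, whereas the treatment protocol in the labels names ZDHHC15 as the hairpin target, with transient transfection and harvest after 36 h. The labels do not settle the matter, nor do they say how many hairpins or clones were used or that replicates came from separate cultures. The p-values therefore reflect the spread among these 4 libraries alone, which may be technical.

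Before S phase, the origin recognition complex (ORC), CDC6 and CDT1 load the ring-shaped MCM2 to MCM7 helicase onto origins, a step that geminin blocks once replication has begun. The kinase CDC7 with DBF4, and factors such as TICRR, RECQL4 and MCM10, then recruit CDC45 and the GINS complex, which turn the loaded ring into an active helicase. Polymerase alpha with its primase starts each strand, polymerases epsilon and delta extend it on the PCNA clamp placed by replication factor C (RFC), and FEN1 and LIG1 join the fragments of the lagging strand. Many of these genes are known targets of the E2F transcription factors in cycling cells, and in glioma, as in other tumours, their transcripts accompany proliferation.

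Total counts were 31160205 and 36234336 in shMAGED2 and 34235565 and 28673774 in shCON, and MAGED2 itself had 526 and 795 counts in shMAGED2 against 6090 and 5225 in shCON (log2 change -3.16; edgeR, adjusted p = 0.000654). Of the glial markers, VIM was abundant, with 8190 CPM on average in shMAGED2 and 7751 CPM in shCON, whereas GFAP had at most 89 counts, SOX2 at most 4, and SOX10 and AQP4 had 0 counts in every library. Of the 5 glial markers that could be tested, NES rose and OLIG2 fell. Summed markers of blood cells (0.327 to 1.47 CPM) and of epithelium (0.327 to 0.682 CPM) were near 0 in all 4 libraries. Those of endothelium summed to 9.71 and 8.47 CPM in shMAGED2 and 12.2 and 14.0 CPM in shCON. Most of this was KDR, which fell (6.93 and 6.94 CPM in shMAGED2, 10.6 and 11.6 CPM in shCON). At low counts, PECAM1 and CDH5 lay higher in both shMAGED2 libraries and VWF lay lower, all short of a call, and CLDN5 had at most 2 counts. Markers of neurons summed to 47.8 and 43.7 CPM in shMAGED2 and 50.1 and 46.4 CPM in shCON. The proliferation markers MKI67, TOP2A, BUB1, AURKB, CCNB1 and PLK1 were all higher in shMAGED2, with sums of 1880 and 1541 CPM there against 477 and 467 CPM in shCON. They moved in the same direction as the genes below, and their part in these results was not tested. In RNA from a whole culture, more cells in S phase and more transcript per cell cannot be told apart.

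The upstream regions shown here belong to members that rose and that hold the letters of an E2F site; they are printed because these genes moved together and such letters were looked for in their promoters. The letters searched were TTTCCCGC, TTTGGCGC, TTTCGCGC and TTTGCCGC on both strands, in windows of 300 bases around each RefSeq start (250 before and 50 after it, build GRCh38.p14). Capitals mark the matches, each sequence runs 5′ to 3′ on the strand of the gene, and bases that GENCODE 29 annotates as exon were left out.
MCM3, chr6:52284882-52284986, minus strand: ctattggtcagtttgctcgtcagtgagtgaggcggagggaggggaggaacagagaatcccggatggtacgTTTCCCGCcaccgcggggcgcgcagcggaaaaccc
MCM6, chr2:135876452-135876665, minus strand: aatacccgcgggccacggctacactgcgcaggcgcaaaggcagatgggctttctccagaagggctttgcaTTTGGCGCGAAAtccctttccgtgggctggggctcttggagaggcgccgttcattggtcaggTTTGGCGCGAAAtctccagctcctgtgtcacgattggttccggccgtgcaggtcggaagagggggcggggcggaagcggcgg
CDC7, chr1:91500974-91501107, plus strand: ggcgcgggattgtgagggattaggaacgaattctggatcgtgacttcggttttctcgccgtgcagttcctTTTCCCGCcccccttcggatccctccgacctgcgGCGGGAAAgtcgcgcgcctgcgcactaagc
POLA1, chrX:24693711-24693858, plus strand: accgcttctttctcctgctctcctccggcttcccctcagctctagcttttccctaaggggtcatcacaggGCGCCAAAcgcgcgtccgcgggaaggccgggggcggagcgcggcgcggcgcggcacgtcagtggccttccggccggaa
In MCM6 the letters occur in 2 copies of one run that reads as a match on both strands, so its 4 matches overlap in pairs.

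Of the 44 members found in the RefSeq promoter table, 22 held at least 1 of these letters at one of their starts, against 1090 of all 27305 genes in that table (3.99%) and 684 of the 10416 genes tested here that could be matched by symbol (6.57%). Among the repair, translesion and mitochondrial polymerases, whose median log2 change was 0.04, it was 3 of 15 genes. Counted by start, 22 of 58 member windows held a match (37.9%), against 1164 of 35116 windows overall (3.31%). Among members that rose it was 21 of 38, and among those that missed the threshold it was 1 of 6, the exception being ORC3. The helicase loaders and geminin held it in 3 of 3 genes, the MCM proteins in 5 of 6 and GINS and CDC45 in 3 of 4. Polymerase epsilon held it in 2 of 3, and polymerase alpha-primase and the fork factors in 2 of 4 each. It was 1 of 2 for FEN1 and LIG1, 1 of 3 for firing factors and 2 of 6 for clamp and loader. The origin recognition complex held it in 1 of 6, polymerase delta in 0 of 2 and replication protein A in 0 of 1. ORC1, ORC6, MCM10, CDC45 and DBF4 rose and had 0 matches. TTTGCCGC was found in 0 member promoters. A match describes the letters in the window and does not show that a factor binds there.

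The comparison of shMAGED2 with shCON asked whether replication genes changed as a whole or by complex. Each of the 51 members had a log2 change above 0, against 50.3% of all genes tested, and 44 rose past the threshold (adjusted p under 0.05 in edgeR's quasi-likelihood test, with Benjamini-Hochberg adjustment over all 15293 genes tested), against 12.3% of all genes tested. Members that fell numbered 0 in edgeR, against 11.6% of all genes, and also 0 at an unadjusted p under 0.05, in DESeq2 and in limma-voom. At least 2-fold rises were found for 35 members, against 4.43% of all genes. The counts given below for each role group are to be read against these shares of all genes. The median log2 change of the members was 1.21, with a range of 0.06 to 2.16, beside a median of 0.00 for all genes tested. All 51 passed the filter on low counts, the lowest being the 56 counts of POLE2 in shCON replicate 2.

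In CPM, which are counts scaled to the library's size and TMM factor, the members together held 3650 and 3738 CPM in shMAGED2, against 1723 and 1708 CPM in shCON. As a share of all counts this was 0.345% and 0.379% in shMAGED2 and 0.176% and 0.175% in shCON. Both shMAGED2 libraries lay above both shCON libraries for 50 members, against 33% of all genes tested, and ORC4 was the member whose groups overlapped. In FPKM this held for 49 members, against 4436 of the 15293 genes tested. There RPA3 overlapped too, at 7.46 in shMAGED2 replicate 1 against 7.63 in shCON replicate 2. The shMAGED2 pair differed from each other by up to the ratio of 0.604 seen for RPA3 (replicate 1 over replicate 2) and 1.37 for GINS2, and the shCON pair by 0.678 for GINS1 and 1.40 for CDT1. The median log2 change of the members was 1.26 without shMAGED2 replicate 1 and 1.12 without shMAGED2 replicate 2. It was 1.19 without shCON replicate 1 and 1.23 without shCON replicate 2. Calls, among all genes as among the members, grew in number without a shMAGED2 library and shrank without a shCON library. A library left alone in its group was taken to vary as the pair in the other group did. In a limma fit to log2(FPKM + 1) with no filter on low values 34 members rose, against 3.97% of all genes in that fit. There CDT1, PRIM1, POLD1, POLD2, POLD3, PCNA, RFC2, RFC4, RPA2 and FEN1 missed the threshold (limma, adjusted p of 0.0547 to 0.117).

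**Figure D1:**
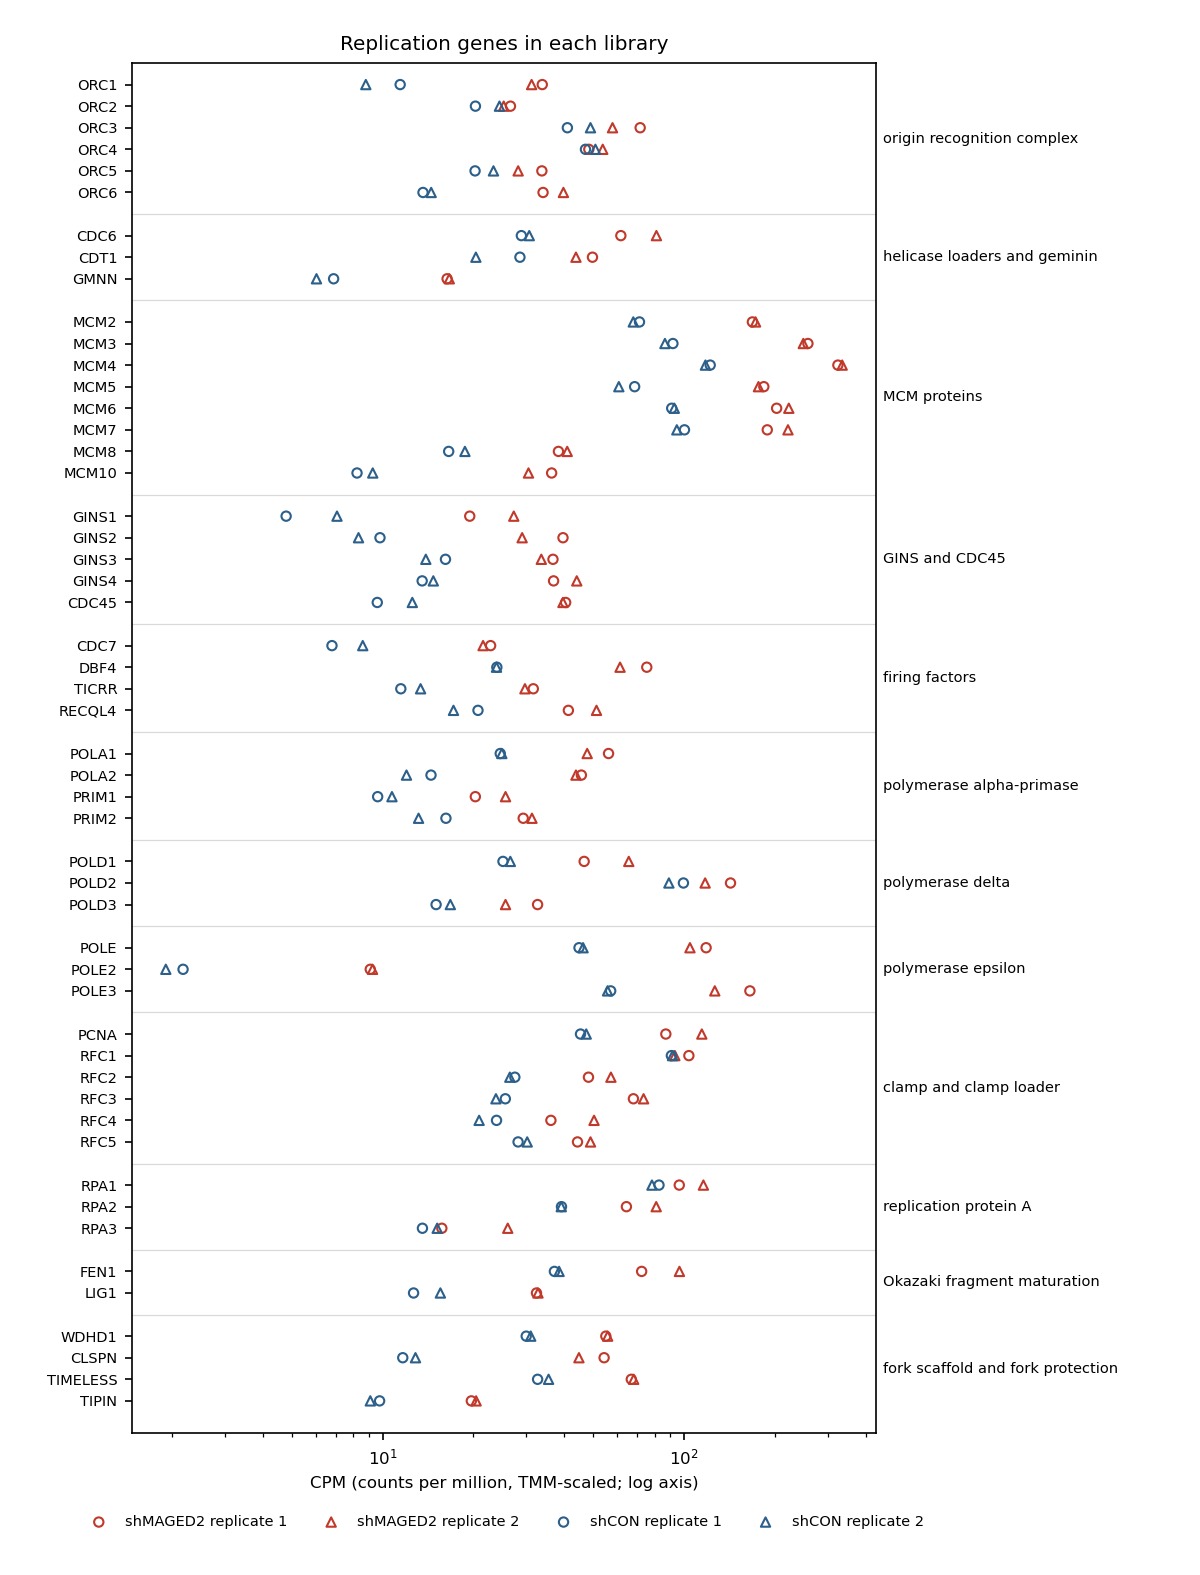
CPM of each of the 51 members on a log axis, in 12 groups by role, with shMAGED2 libraries in red and shCON libraries in blue, 1 symbol per library. The red symbols lie to the right of the blue ones for every member except ORC4, and the distance is short for ORC2, RFC1 and RPA3.

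The origin recognition complex, which marks origins and recruits the loaders, split into subunits that rose and subunits that did not. ORC6, its smallest subunit (chromosome 16, 46689643 to 46698394, plus strand), had 34.1 and 39.8 CPM in shMAGED2, against 13.6 and 14.5 CPM in shCON. Its groups were far apart, and the log2 change was 1.39 (SE 0.14; edgeR, adjusted p = 0.00248). ORC1, the ATPase subunit that is made and destroyed with each cycle in human cells, had 33.9 and 31.2 CPM in shMAGED2 and 11.4 and 8.80 CPM in shCON, a log2 change of 1.68 (SE 0.17; edgeR, adjusted p = 0.00249). ORC4 (chromosome 2, 147930397 to 148021604, minus strand), another ATPase subunit, had 48.3 and 53.7 CPM in shMAGED2, against 47.1 and 50.8 CPM in shCON. Its groups interleaved, and its log2 change of 0.06 (SE 0.12) missed the threshold (edgeR, adjusted p = 0.743).

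ORC2, ORC3 and ORC5, which form the core of the complex with ORC4, had log2 changes of 0.21, 0.52 and 0.51 and also missed the threshold. ORC3 had 71.5 and 57.9 CPM in shMAGED2 against 41.0 and 48.9 CPM in shCON, without overlap, at an edgeR adjusted p of 0.0550. It passed without shMAGED2 replicate 1 (log2 change 0.37) and without shMAGED2 replicate 2 (0.67), as did ORC5 (0.37 and 0.63). Thus 2 of the 6 subunits rose in the main fit, against 12.3% of all genes tested. With all libraries kept, 3 rose in DESeq2, where 12.7% of all genes rose and ORC3 passed (DESeq2, adjusted p = 0.0199). In edgeR with no count filter 4 rose, where 10.8% of all genes rose. The fits in which ORC3 and ORC5 passed without a shMAGED2 library called more genes over the whole table. FPKM, read here as the level per gene length, are the authors' values scaled for length and library depth. They did not follow CPM by a fixed factor for each gene: in shCON, POLE2 had 1.55 and 1.04 FPKM but 2.18 and 1.91 CPM. How lengths and reads were assigned is not given, so FPKM ratios may differ from ratios of counts. In FPKM, the ratio of ORC1 to ORC2 was 1.63 and 1.665 in shMAGED2, against 0.750 and 0.492 in shCON. With 2 libraries per group an exact permutation test of such a ratio cannot go below p = 0.333, so the ratios are given without a test.

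The loaders of the helicase and their inhibitor rose together. CDC6, an ATPase that joins ORC and helps to load MCM rings, had 61.7 and 81.0 CPM in shMAGED2, against 28.9 and 30.7 CPM in shCON. Both shMAGED2 values lay well above shCON, with a log2 change of 1.26 (SE 0.16; edgeR, adjusted p = 0.00453). CDT1, which carries the MCM ring to the origin, had 49.7 and 43.8 CPM in shMAGED2 and 28.5 and 20.4 CPM in shCON, a log2 change of 0.93 (SE 0.19; edgeR, adjusted p = 0.0191). The shCON pair stood at a ratio of 1.40 to each other, and without shCON replicate 2 its log2 change was 0.71 and missed the threshold (edgeR, adjusted p = 0.102).

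GMNN, which encodes geminin, the protein that binds CDT1 and blocks reloading, had 16.4 and 16.6 CPM in shMAGED2, against 6.88 and 6.04 CPM in shCON. The libraries within each group lay close together, and the log2 change was 1.35 (SE 0.17; edgeR, adjusted p = 0.00492). Per gene length, CDT1 stood at 1.115 and 0.936 times the level of GMNN in shMAGED2, against 1.54 and 1.27 times in shCON, so the ratio was lower in both shMAGED2 libraries.

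All 8 MCM genes rose at least 2-fold, and these 8 calls were also made with each library left out in turn. MCM4, a subunit of the helicase ring, had the smallest p of the members, at 324 and 335 CPM in shMAGED2 against 122 and 118 CPM in shCON. The libraries of each group lay close together and the groups far apart, and the log2 change was 1.46 (SE 0.09; edgeR, adjusted p = 0.000799). MCM3, with the upstream region shown above (gene on chromosome 6, 52264009 to 52284881), had 258 and 249 CPM in shMAGED2 and 91.8 and 86.4 CPM in shCON, a log2 change of 1.51 (SE 0.09). MCM7 changed least among the MCM genes, at 189 and 221 CPM in shMAGED2 against 100.3 and 94.6 CPM in shCON, a log2 change of 1.07 (SE 0.11; edgeR, adjusted p = 0.00260).

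MCM2, MCM5 and MCM6, the remaining ring subunits, had log2 changes of 1.30, 1.48 and 1.21. The 6 ring subunits thus lay within a span of 1.07 to 1.51, and their levels per gene length stayed within a narrow band. In FPKM the highest ring subunit exceeded the lowest by 1.81 and 1.75 times in shMAGED2, against 1.74 and 1.86 times in shCON. The order was not kept: MCM2 was lowest in both shMAGED2 libraries and MCM5 in both shCON libraries, while MCM7 was highest in shCON and MCM3 or MCM4 in shMAGED2.

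The other MCM genes are not subunits of that ring and were read at lower levels per length. MCM10, which helps to activate the loaded helicase, had 36.4 and 30.5 CPM in shMAGED2, against 8.23 and 9.27 CPM in shCON. Its log2 change of 1.93 (SE 0.16; edgeR, adjusted p = 0.00144) was the highest of the MCM genes. MCM8, which works with MCM9 in recombination repair, had a log2 change of 1.17 (SE 0.13), whereas MCM9, which is no member, had 0.24 (SE 0.19) and missed the threshold (edgeR, adjusted p = 0.397). Per length, MCM10 averaged 7.36 ± 0.507 FPKM in shMAGED2 and 2.26 ± 0.530 FPKM in shCON (SD, n = 2 each), against 44.7 ± 2.66 FPKM in shMAGED2 and 19.0 ± 0.582 FPKM in shCON for MCM2.

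**Figure D2:**
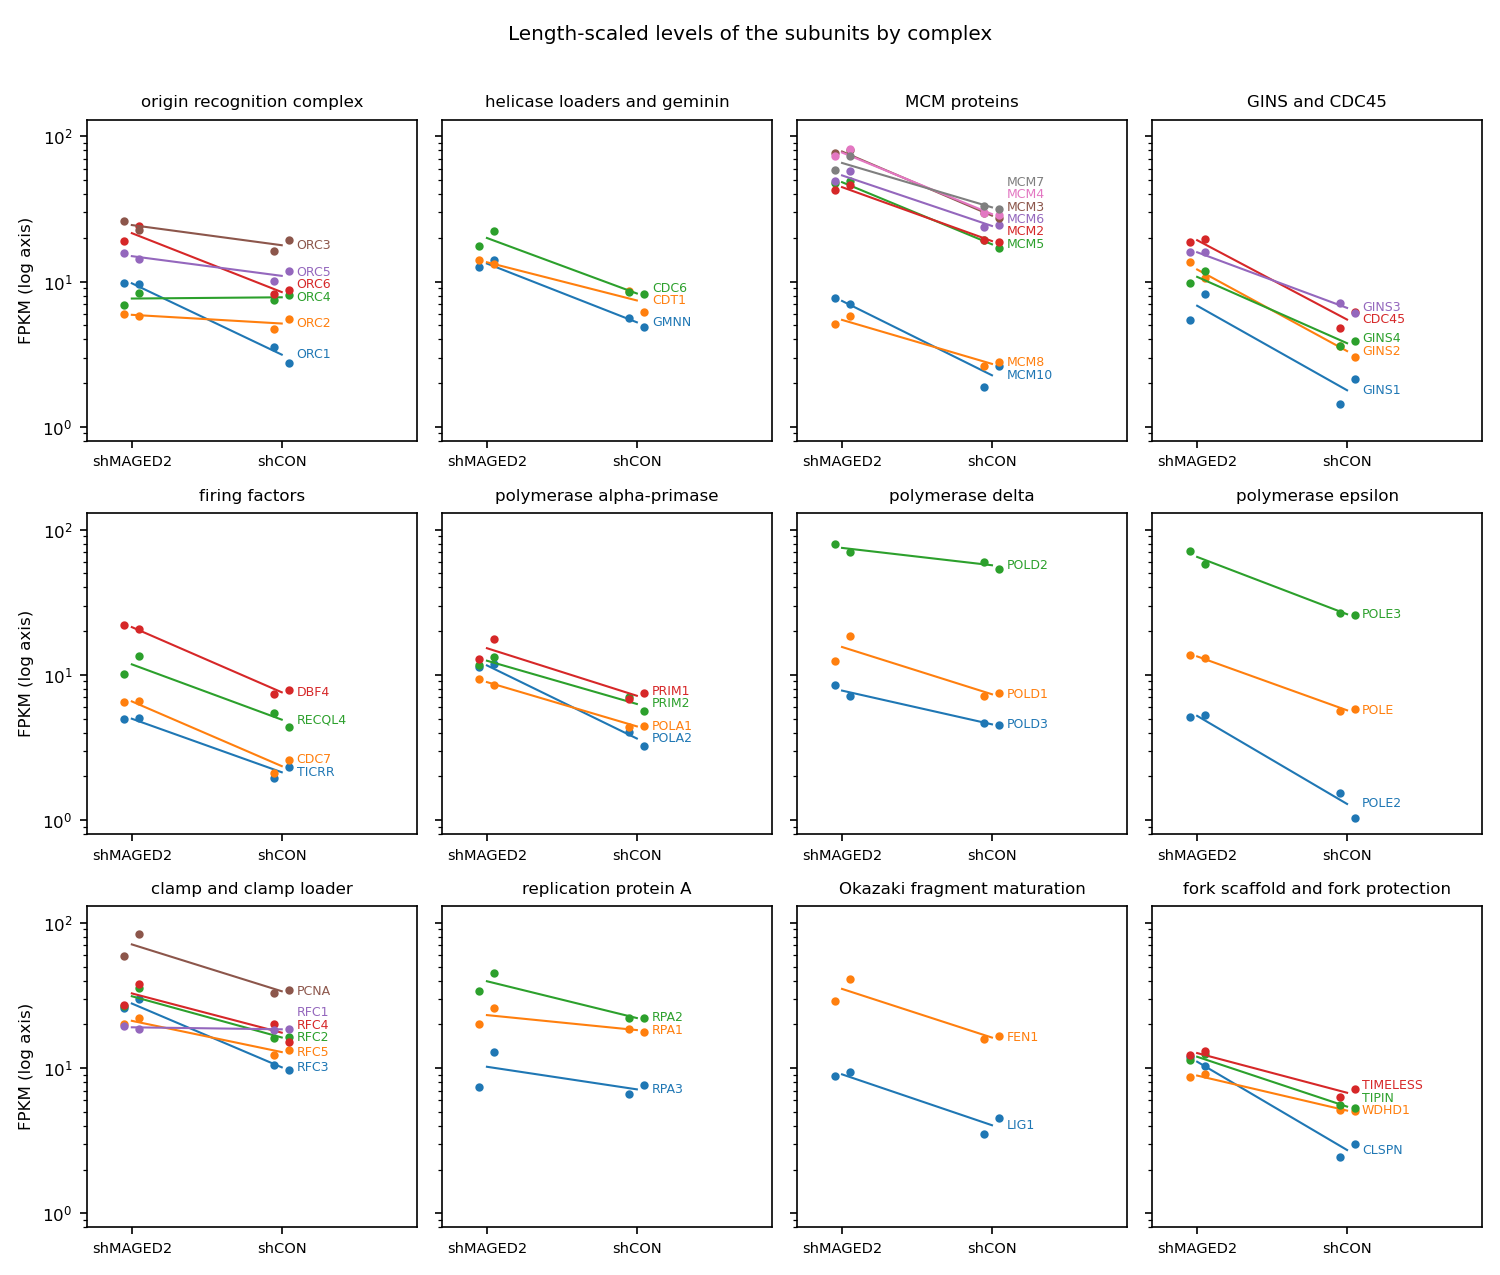
FPKM of each member on a log axis, 1 panel per role group, with shMAGED2 at the left and shCON at the right of each panel; dots are libraries and lines join the group means. The lines of the MCM, GINS and firing panels all slope down to shCON, whereas those of ORC2, ORC4 and RFC1 are nearly level.

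GINS and CDC45, which clamp onto the MCM ring to form the working helicase, had the highest median change of the 12 role groups, a log2 change of 1.86, and 5 of 5 rose. CDC45 (chromosome 22, 19479459 to 19520612, plus strand) had 40.5 and 39.7 CPM in shMAGED2, against 9.60 and 12.5 CPM in shCON. Both shMAGED2 values were over 3 times the higher shCON value, and the log2 change was 1.86 (SE 0.17; edgeR, adjusted p = 0.00173). GINS1 had 19.5 and 27.2 CPM in shMAGED2 and 4.79 and 7.06 CPM in shCON, a log2 change of 1.98 whose SE of 0.27 was the widest of the members.

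GINS2 rose alike, with a log2 change of 1.92 (SE 0.20), and GINS4 by 1.52 (SE 0.15). GINS3 had the smallest change of this complex, at 36.7 and 33.6 CPM in shMAGED2 against 16.2 and 13.9 CPM in shCON, a log2 change of 1.22 (SE 0.14; edgeR, adjusted p = 0.00381). Per length, CDC45 stood at 0.440 and 0.423 times the level of MCM2 in shMAGED2, against 0.245 and 0.333 times in shCON.

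The factors that fire origins rose in 4 of 4 cases, within a span of 1.29 to 1.53 on the log2 scale. DBF4, the activating subunit of the CDC7 kinase, had 75.2 and 61.3 CPM in shMAGED2, against 23.9 CPM in each shCON library. The shCON pair was alike and the shMAGED2 pair was not, with a log2 change of 1.51 (SE 0.14; edgeR, adjusted p = 0.00174). CDC7, the kinase itself, had 22.8 and 21.5 CPM in shMAGED2 and 6.79 and 8.59 CPM in shCON, a log2 change of 1.53 (SE 0.18).

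The ratio of DBF4 to CDC7 per length was 3.37 and 3.13 in shMAGED2 and 3.50 and 3.00 in shCON, so here the groups overlapped. RECQL4, a helicase of the RecQ family needed for initiation, had 41.3 and 51.2 CPM in shMAGED2, against 20.7 and 17.2 CPM in shCON, a log2 change of 1.29 (SE 0.17; edgeR, adjusted p = 0.00511). TICRR, known as treslin, which brings CDC45 to the helicase, had a log2 change of 1.30 (SE 0.15).

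Polymerase alpha and its primase, which lay down the RNA-DNA primers, rose in 4 of 4 subunits. POLA2, the accessory subunit, had 45.6 and 43.8 CPM in shMAGED2, against 14.5 and 12.002 CPM in shCON, a log2 change of 1.75 (SE 0.15; edgeR, adjusted p = 0.00140). It shares 35.1% of its exon bases with the gene model AP000944.2 on the same strand, and how shared reads were counted is unknown. PRIM2, the large primase subunit, had 29.3 and 31.3 CPM in shMAGED2 and 16.2 and 13.2 CPM in shCON, a log2 change of 1.04 (SE 0.16; edgeR, adjusted p = 0.00801).

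POLA1, the catalytic subunit, had a log2 change of 1.07 (SE 0.13), and PRIM1, the catalytic primase subunit, 1.17 (SE 0.18). PRIM1 shares 14.9% of its exon bases with AC117378.1 on the same strand. Without shCON replicate 1 PRIM1 missed the threshold (log2 change 1.09; edgeR, adjusted p = 0.0577), as did PRIM2 without shCON replicate 2 (0.90; adjusted p = 0.0592).

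Polymerase delta, which copies the lagging strand, had a median log2 change of 0.87, beside 1.37 for polymerase epsilon, which copies the leading strand; this difference was not tested. POLD1, the catalytic subunit, had 46.6 and 65.6 CPM in shMAGED2, against 25.1 and 26.5 CPM in shCON. The shMAGED2 libraries differed from each other but both lay above shCON, with a log2 change of 1.12 (SE 0.18; edgeR, adjusted p = 0.0100). POLD2, an accessory subunit, had 143 and 117 CPM in shMAGED2 and 99.5 and 89.1 CPM in shCON, a log2 change of 0.46 (SE 0.13), just past the threshold (edgeR, adjusted p = 0.0487).

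The POLD2 call was lost without shCON replicate 1 (adjusted p = 0.190), without shCON replicate 2 (0.351), in limma-voom (0.0505), with library size alone in edgeR (0.0558) and in the fits to FPKM values (0.0781 to 0.117). POLD3, which ties the enzyme to PCNA, had a log2 change of 0.87 (SE 0.17; edgeR, adjusted p = 0.0177), and missed the threshold without shCON replicate 1 (0.79; adjusted p = 0.126) or shCON replicate 2 (0.95; adjusted p = 0.0607). The number of delta subunits that rose was 3 in the main fit, where 12.3% of all genes rose. It was 0 in the fit to log2(FPKM + 1) with no filter on low values, where 3.97% of all genes rose. There POLD1 had an adjusted p of 0.0708 and POLD3 of 0.0633 (limma). POLD4, the smallest subunit and no member, had 59.1 ± 2.95 CPM in shMAGED2 and 75.1 ± 2.14 CPM in shCON (SD, n = 2 each), a log2 change of -0.34 that missed the threshold (edgeR, adjusted p = 0.0578).

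All 3 polymerase epsilon members rose at least 2-fold. POLE2, the B subunit, had the largest change of the 51 members, at 9.10 and 9.26 CPM in shMAGED2 against 2.18 and 1.91 CPM in shCON. It rested on few counts, 268 and 340 in shMAGED2 and 76 and 56 in shCON, and the log2 change was 2.16 (SE 0.23; edgeR, adjusted p = 0.00260). POLE, the catalytic subunit, had 118 and 105 CPM in shMAGED2 and 44.8 and 46.2 CPM in shCON, a log2 change of 1.29 (SE 0.11; edgeR, adjusted p = 0.00146). POLE3, a histone-fold subunit that also serves in chromatin remodelling, had a log2 change of 1.37 (SE 0.15). Its usual partner POLE4, no member, had 21.5 ± 8.87 CPM in shMAGED2 and 22.1 ± 2.93 CPM in shCON (SD, n = 2 each), a log2 change of -0.04 (edgeR, adjusted p = 0.939).

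Per length, the subunits of these polymerases lay far apart. In shMAGED2 POLD2 averaged 74.8 ± 6.60 FPKM and POLD3 7.79 ± 0.929 FPKM, and in shCON 56.8 ± 4.54 and 4.56 ± 0.111 FPKM (SD, n = 2 each). The ratio of POLE2 to POLE3 was 0.0723 and 0.0905 in shMAGED2, against 0.0583 and 0.0402 in shCON. The ratio of POLE to POLE3 was 0.193 and 0.223 in shMAGED2 and 0.212 and 0.225 in shCON, so that these groups overlapped.

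**Figure D3:**
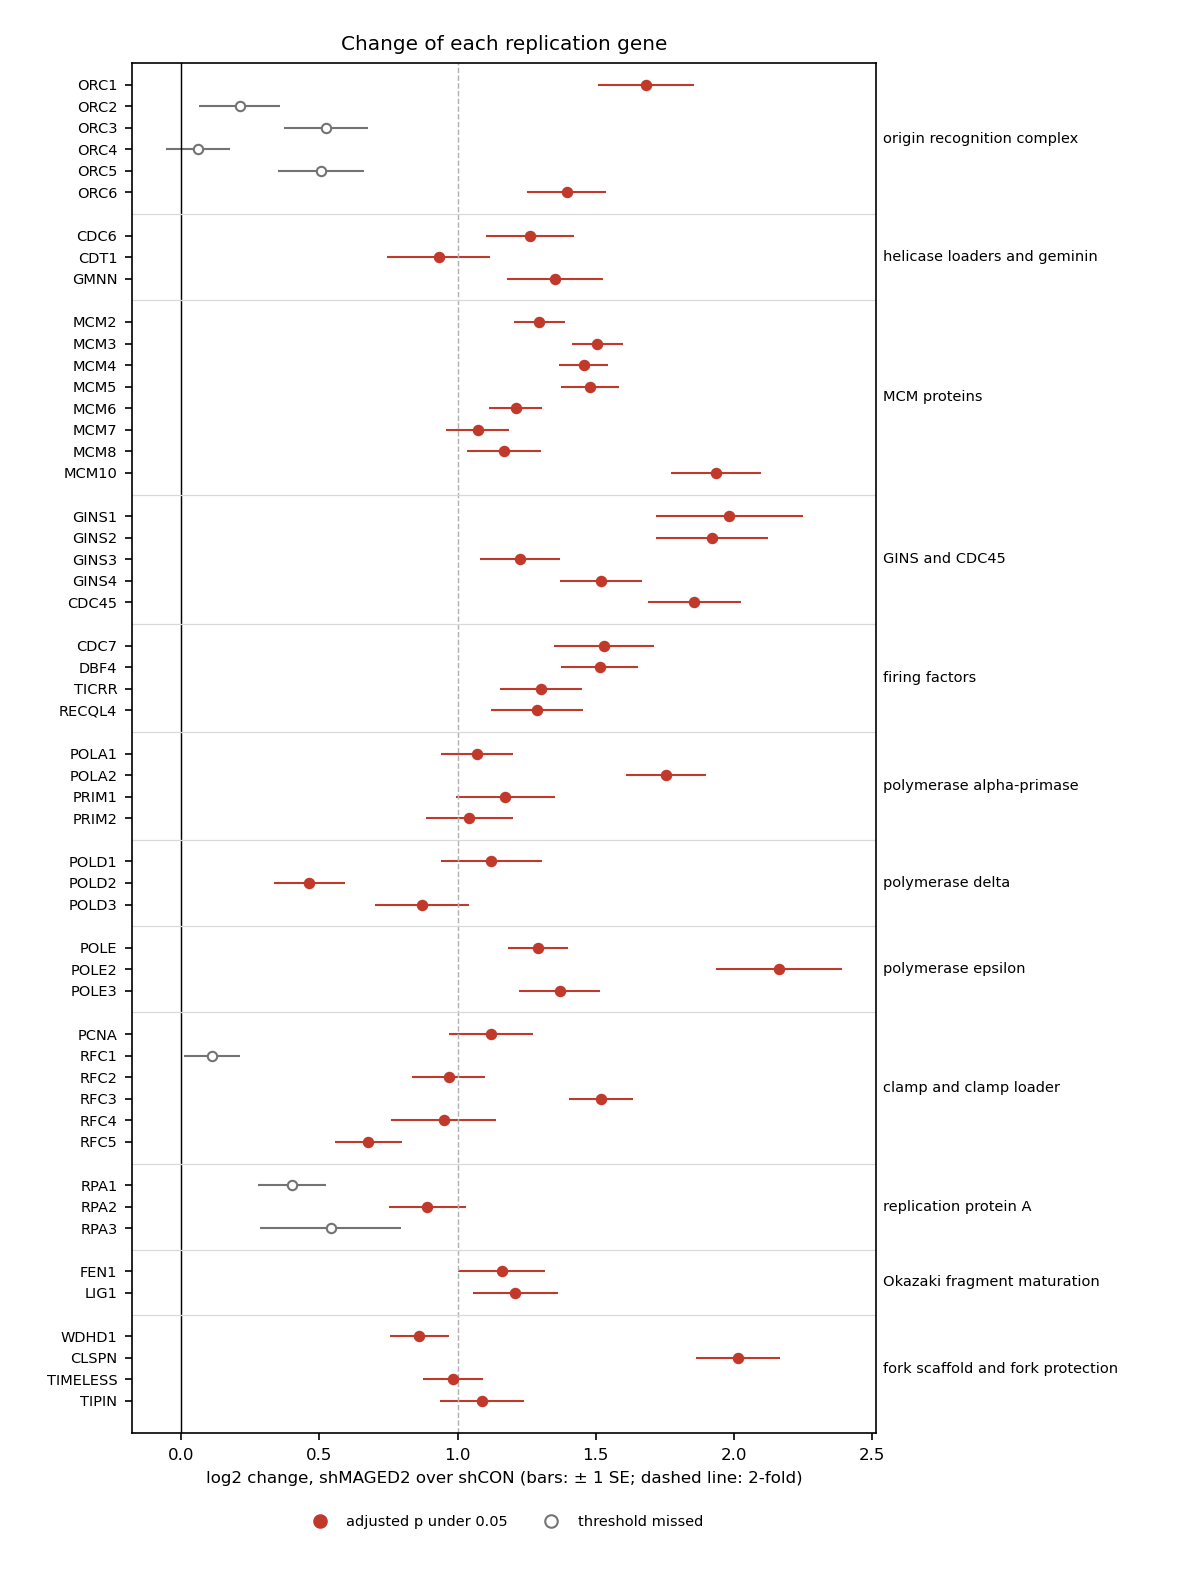
Log2 change of each member, shMAGED2 over shCON, with bars of 1 SE, filled where the edgeR adjusted p was under 0.05. The 44 filled points run from POLD2 at 0.46 to POLE2 at 2.16, and the 7 open points are ORC2, ORC3, ORC4, ORC5, RFC1, RPA1 and RPA3.

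The sliding clamp and the 4 small subunits of its loader rose, and the large subunit missed the threshold. RFC3, a small subunit of the loader (chromosome 13, 33818049 to 33966558, plus strand), had 67.9 and 73.4 CPM in shMAGED2, against 25.5 and 23.8 CPM in shCON, a log2 change of 1.52 (SE 0.12; edgeR, adjusted p = 0.00116). RFC1, the large subunit, had 104 and 93.2 CPM in shMAGED2 and 90.8 and 91.6 CPM in shCON. Its lower shMAGED2 value was close to the shCON pair, and its log2 change of 0.11 (SE 0.10) missed the threshold (edgeR, adjusted p = 0.471), though it passed without shMAGED2 replicate 2 (0.18; adjusted p = 0.0257).

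RFC2, RFC4 and RFC5 had log2 changes of 0.97, 0.95 and 0.68. RFC4 missed the threshold without shCON replicate 1 (1.05; edgeR, adjusted p = 0.0534) and without shCON replicate 2 (0.86; adjusted p = 0.0862), and so did RFC5 (0.63 and 0.73; adjusted p = 0.152 and 0.0932). PCNA, the clamp, had 86.995 and 115 CPM in shMAGED2 and 45.3 and 47.4 CPM in shCON, a log2 change of 1.12 (SE 0.15; edgeR, adjusted p = 0.00580). Per length, RFC3 stood at 1.33 and 1.60 times the level of RFC1 in shMAGED2, against 0.573 and 0.523 times in shCON.

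Replication protein A is the trimer that coats unwound single strands. In the main fit 1 of its 3 subunits rose, against 12.3% of all genes tested. The median log2 change of the 3 subunits was 0.54. RPA2, the middle subunit and a target of checkpoint kinases, had 64.4 and 80.8 CPM in shMAGED2, against 39.2 and 39.1 CPM in shCON. It rose with a log2 change of 0.89 (SE 0.14; edgeR, adjusted p = 0.00886), and missed the threshold without shCON replicate 1 (0.89; adjusted p = 0.0557). RPA1, the large DNA-binding subunit, had 96.4 and 116 CPM in shMAGED2 and 82.6 and 78.3 CPM in shCON, a log2 change of 0.40 (SE 0.12; edgeR, adjusted p = 0.0613).

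RPA1 passed in 4 of 14 alternative fits. With all libraries kept it passed in DESeq2 (adjusted p = 0.0394) and in edgeR with no count filter (adjusted p = 0.0391). In those fits 12.7% and 10.8% of all genes rose. RPA1 also passed without either shMAGED2 library (log2 change 0.53 without replicate 1 and 0.26 without replicate 2). RPA3, the small subunit, had 15.7 and 26.0 CPM in shMAGED2 and 13.6 and 15.2 CPM in shCON, so that replicate 1 of shMAGED2 was near shCON and replicate 2 was not. Its log2 change of 0.54 (SE 0.26) missed the threshold (edgeR, adjusted p = 0.179), and was 0.86 without shMAGED2 replicate 1, where it passed, and 0.13 without shMAGED2 replicate 2. The ratio of RPA2 to RPA1 per length was 1.68 and 1.73 in shMAGED2, against 1.18 and 1.24 in shCON.

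The enzymes that finish lagging strand fragments rose in 2 of 2 cases. LIG1, the replicative DNA ligase, had 32.4 and 32.8 CPM in shMAGED2, against 12.7 and 15.5 CPM in shCON, a log2 change of 1.21 (SE 0.15; edgeR, adjusted p = 0.00480). FEN1, the nuclease that trims the flaps, had 72.3 and 96.5 CPM in shMAGED2 and 37.1 and 38.5 CPM in shCON, a log2 change of 1.16 (SE 0.16; edgeR, adjusted p = 0.00591). LIG3, a ligase of repair and of mitochondria that is no member, had a log2 change of -0.03 and missed the threshold (edgeR, adjusted p = 0.867).

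The scaffold and protection factors that travel with the fork rose in 4 of 4 cases. CLSPN, which encodes claspin, the adaptor that passes the ATR signal to CHK1, had 54.3 and 44.8 CPM in shMAGED2, against 11.7 and 12.9 CPM in shCON. The log2 change of 2.01 (SE 0.15; edgeR, adjusted p = 0.00116) was the second largest of the members. WDHD1, which couples polymerase alpha to the helicase, had 55.0 and 55.8 CPM in shMAGED2 and 29.9 and 31.0 CPM in shCON, a log2 change of 0.86 (SE 0.11; edgeR, adjusted p = 0.00459), and missed the threshold without shCON replicate 1 (0.83; adjusted p = 0.0604).

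TIMELESS and TIPIN, which form a complex that steadies the fork, had log2 changes of 0.98 (SE 0.11) and 1.09 (SE 0.15). TIPIN shares 21.0% of its exon bases with the processed pseudogene RPL9P25 on the same strand. Across the members, 6 overlap another annotated gene's exons on the same strand and 19 on the opposite strand, and whether counting used strand is unknown from the sources used here. PCNA, RPA2, DBF4, POLD2, RFC3, RFC5 and FEN1 have pseudogenes named after them in GENCODE 29, 11 in all. Of these pseudogenes, 0 are named among the deposited counts. How reads that match both a gene and its pseudogene were assigned is not given either.

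Other genes of the pathway were read beside the members, from lists chosen with earlier results of these data known. The counts of each list are to be read against the 12.3% of all genes tested that rose and the 11.6% that fell. Of 22 further licensing and firing genes, 15 rose and 0 fell, with a median log2 change of 0.75. CCNA2, the S phase cyclin, had 149 and 143 CPM in shMAGED2 against 43.0 and 45.9 CPM in shCON (log2 change 1.71). DTL, which targets CDT1 for destruction in S phase, had a log2 change of 1.69, CDK2 of 1.37 and DBF4B, a second partner of CDC7, of 1.79. The histone acetyltransferase KAT7 (-0.07) and RIF1, which restrains firing (0.00), missed the threshold.

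Of 18 further fork and lagging strand genes, 8 rose and 0 fell, with a median log2 change of 0.42. The largest of these were TONSL, which reads new histones behind the fork (1.68), TOP2A, which untangles daughter DNA (1.60), RNASEH2A, the catalytic subunit of ribonuclease H2 (1.35), and MMS22L, the partner of TONSL (1.20). RNASEH2B, another subunit of ribonuclease H2, had -0.31 and missed the threshold (edgeR, adjusted p = 0.164). Among 8 genes of alternative clamp loaders and clamps, 3 rose and 1 fell: ATAD5, which unloads PCNA (1.57), DSCC1 (1.27) and CHTF18 (1.10), both of the cohesion loader, rose, and the checkpoint loader RAD17 fell to 71.5 and 65.2 CPM in shMAGED2, against 94.7 and 96.7 CPM in shCON (log2 change -0.49; edgeR, adjusted p = 0.0212).

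Among polymerases and partners that work in repair, past lesions or in mitochondria, 16 of 17 were tested. Of these 3 rose and 1 fell, near the 12.3% and 11.6% of all genes tested, with a median log2 change of 0.04. POLQ, the polymerase of end joining by microhomology, had 42.8 and 42.4 CPM in shMAGED2, against 14.5 and 14.1 CPM in shCON (log2 change 1.57; edgeR, adjusted p = 0.00120). SSBP1, the mitochondrial single-strand binding protein (0.41), and MAD2L2, a subunit of polymerase zeta (0.53), rose less, and POLL, a repair polymerase, fell to 22.8 and 24.9 CPM in shMAGED2, against 35.7 and 35.2 CPM in shCON (-0.57; adjusted p = 0.0242). POLG, the mitochondrial polymerase, had 0.00 and PRIMPOL 0.01. The difference between these lists and the members was not tested, since genes are not replicates.

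Of 13 genes of the E2F and RB families, 7 rose and 1 fell, against 12.3% and 11.6% of all genes tested, with a median of 0.54. E2F2 (2.27), E2F8 (2.21), E2F1 (1.38) and the pocket protein RBL1 (1.10) had the smallest p-values. The gene that fell was RBL2, a pocket protein of resting cells, at a log2 change of -0.35 (edgeR, adjusted p = 0.0370), while E2F3 (0.15) and E2F6 (-0.08) missed the threshold.

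**Figure D4:**
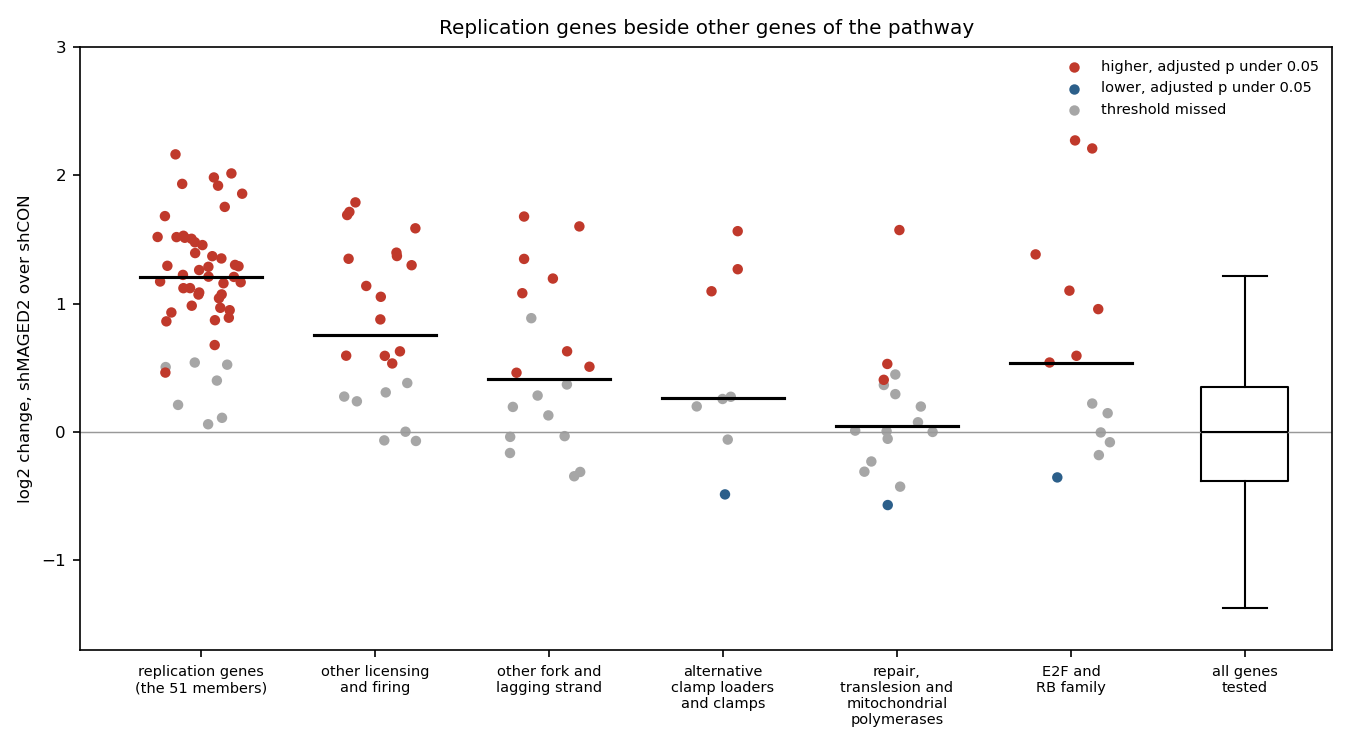
Log2 change, shMAGED2 over shCON, of the 51 members, of 5 lists of related genes and of all genes tested; dots are genes, black lines medians, and the box gives the quartiles of all genes with whiskers at the 5% and 95% points. The median of the members, 1.21, is level with the upper whisker of all genes at 1.22, and that of the repair, translesion and mitochondrial polymerases, 0.04, is near 0.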

How the data were processed

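RNA-seq of 4 libraries was used, 2 per group. The authors deposited raw counts of each gene in each library, as whole numbers, and FPKM values that they computed. The submitters' processing notes list HISAT2, StringTie, SAMtools and hg38 without roles or versions. Annotation and strand setting: not given in the sources used here.

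The count test was edgeR 4.0.16 under R 4.3.3 (filterByExpr by group, TMM scaling, robust quasi-likelihood fit with group as its only term, 2 residual degrees of freedom), two-sided, with Benjamini-Hochberg adjustment over 15293 genes and a threshold of 0.05. CPM were computed on the TMM-scaled library sizes. Standard errors came from the F statistic. A gene with 0 counts could be at up to 3 counts, which is 0.0963 and 0.0828 CPM in shMAGED2 replicates 1 and 2 and 0.0876 and 0.105 CPM in shCON, for counting error only. No pair looked like a repeat deposit: chi-square over its degrees of freedom was 79.6 within shMAGED2 and 7.00 within shCON. The shMAGED2 pair thus varied more over the whole table. The fit shared the dispersion of each gene between the groups, which limits every call.

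Members and lists were chosen with earlier results of these data known. In each role group values are given for the member with the smallest p and for the one nearest 0, and in each list of related genes up to 4 with the smallest p; further list genes were named after their values were seen. Gene coordinates are from GENCODE 29 on hg38 and promoters from RefSeq on GRCh38.p14, where MCM4, MCM5, GINS4, RECQL4, POLD3, RPA2 and RPA3 were not matched. The promoters printed belong to the members with the smallest p whose match lies outside annotated exons and off chromosome 8. The alternatives were other scalings, DESeq2 1.42.0, limma 3.58.1 (voom on counts, and log2(FPKM + 1) or log2(FPKM + 0.1), which understates changes of low genes), other filters, a block for replicate number, and leaving out libraries in turn. The tests were also tried on simulated data with the same dispersion in both groups. The spread here was unequal between the groups, so that trial does not bear on the calls.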

Additional observations from a re-analysis of the deposited data

How the results depend on the processing

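The number of members that rose was 43 to 47 in DESeq2, limma-voom, other scalings, other count filters and the filtered FPKM fits. In these fits 9.86% to 15.3% of all genes rose. The number was 34 in the fit to log2(FPKM + 1) with no filter, where 3.97% of all genes rose. In any of these fits 0 members fell. With 1 library left out the median log2 change of the members was 1.12 to 1.26. Of all genes, 3649 were called, against 1640 in the unfiltered FPKM fit and 1100 to 7447 with 1 library left out, where fewer samples set the spread. MAGED2 fell in every fit, with log2 changes of -3.03 to -3.31 when a library was left out. Of 714 repeats of a member's test, 670 kept direction and side of the threshold, 27 lost a call and 13 gained one, and 32 members kept direction and side of the threshold in every repeat. ORC4 changed sign in 4 repeats, to -0.0301 in both fits to log2(FPKM + 1), to -0.0342 in that to log2(FPKM + 0.1), and to -0.0198 without shMAGED2 replicate 2; the cause was not tested. With 1 library left out its log2 change ran from -0.0198 to 0.136.

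The replicate numbers are not said to mark a shared batch, and same-numbered libraries did not deviate together (r = -0.02 over 15293 genes between the differences of the pairs). With a replicate block 44 members rose and 3336 genes were called. Depth limits POLE2 most, and 2 libraries per group limit every test.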
